A study of Homo sapiens with 6 samples.

Results

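The serpins and the plasminogen system were taken as every gene with a symbol made of SERPIN, a clade letter from A to I and a number, together with PLAU, PLAUR, PLAT and PLG, where a probe set named that gene alone. The rule found 35 of the 18417 genes measured, 31 serpins and 4 genes of the plasminogen system, and each was read by 1 probe set. Another 4 genes of the RefSeq gene table fit the rule by symbol and were not analysed here. The cells were BRAFV600E A375 cells, an established human melanoma line grown as a monolayer, and all of them carried that BRAF mutation. One group received 10 µM vemurafenib (PLX4032), an inhibitor of mutant BRAF, for 24 h, and the other received vehicle, 0.1% DMSO, for 24 h. Each group held 3 single-colour Affymetrix arrays, 1 for each of 3 cell stocks that were grown and extracted on different days. A single line in culture is the whole model, and the arrays read RNA, not protein or protease activity. Fewer cells of a kind and less RNA per cell cannot be told apart in such bulk RNA.

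Serpins are a family of proteins that share a fold with an exposed loop. In inhibitory serpins a target protease cuts this loop and is trapped in a covalent complex, whereas other members carry hormones, chaperone collagen or signal. The plasminogen system turns the precursor plasminogen into plasmin, a protease that dissolves fibrin and cleaves matrix proteins. Tissue plasminogen activator and urokinase cut plasminogen, the urokinase receptor holds urokinase at the cell surface, and several serpins restrain plasmin or its activators. Urokinase and its receptor are known in melanoma for their part in invasion.

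Levels are log2 values per probe set, and a change is the mean of the vemurafenib arrays minus the mean of the vehicle arrays. A gene passed when its adjusted p from limma, with Benjamini-Hochberg adjustment over all 18417 genes, was under 0.05. Array medians lay between 7.69 and 7.73, and the number of arrays limited the precision. A level of 6.87, under which the dimmest 25% of genes lay, served as a dim line, and 341 olfactory receptor genes, taken as a class with little RNA outside the nose, had a median of 5.50. All 12 genes of a list of ERK pathway output fell with vemurafenib, among them the ERK phosphatase gene DUSP6, which fell by 4.21 on the log2 scale. Of 8 melanocyte markers, MITF, SOX10, S100B and GPNMB lay above the dim line and rose, whereas PMEL, TYR, TYRP1 and MLANA lay under it in both groups. Of the other marker lists, 4 of 10 fibroblast genes rose (DCN, ACTA2, LUM and PDGFRB), 3 of 8 endothelial and 2 of 9 leukocyte genes fell, and 1 of 9 hepatocyte genes fell. In limma 0 of 8 keratinocyte markers passed, with 1 at an unadjusted p under 0.05.

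The largest change among the 35 genes was a rise of SERPINF1, which encodes pigment epithelium-derived factor, to 8.61 times its vehicle level. SERPINA5, SERPINI1, SERPINA6, SERPINB1 and SERPINA1 also rose, by 2.22-fold down to 1.39-fold. SERPIND1, the gene of heparin cofactor II, fell most, 3.52-fold, followed by SERPINB7 (2.69-fold), the urokinase receptor gene PLAUR (2.16-fold), SERPINE2 (1.53-fold), PLAT (1.51-fold), SERPINB8 (1.31-fold) and SERPINA3 (1.20-fold). In all, 13 of the 35 genes passed (37.1%), against 45.5% of all genes. Of these, 6 were higher (17.1% of the members, against 23.2% of all genes) and 7 were lower (20.0%, against 22.2%). The share that passed was thus no larger than the background. With each array centred on the median of the tested genes, a setting chosen after seeing the data, 6 members were higher and 10 lower, and the genes overall split into 3682 higher and 5630 lower, against 4281 and 4090 without it. Changes of at least 2-fold that passed were seen for 5 members (14.3%), against 5.69% of all genes, with 2 higher (3.07% of all genes) and 3 lower (2.62% of all genes). The median change was -0.07 over the members and -0.05 over all genes, and the median size of change was 0.13 and 0.20.

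More than the usual share of the members were dim. The mean over all 6 arrays lay under the dim line for 19 of the 35 genes (54.3%), against the 25% of all genes by which the line was set. Of these 19 only SERPINI1 passed (5.26%), against 21.5% of all genes this dim. Of the 16 members with a mean at or over the line 12 passed (75.0%), against 53.4% of such genes overall. This split was made after the values were seen and is a description. The groups did not overlap for 16 members (45.7%), against 55.4% of all genes. These were the 13 that passed together with SERPINA4, SERPINI2 and SERPINH1, whose gaps between groups were 0.03, 0.02 and 0.03.

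**Figure D1:**
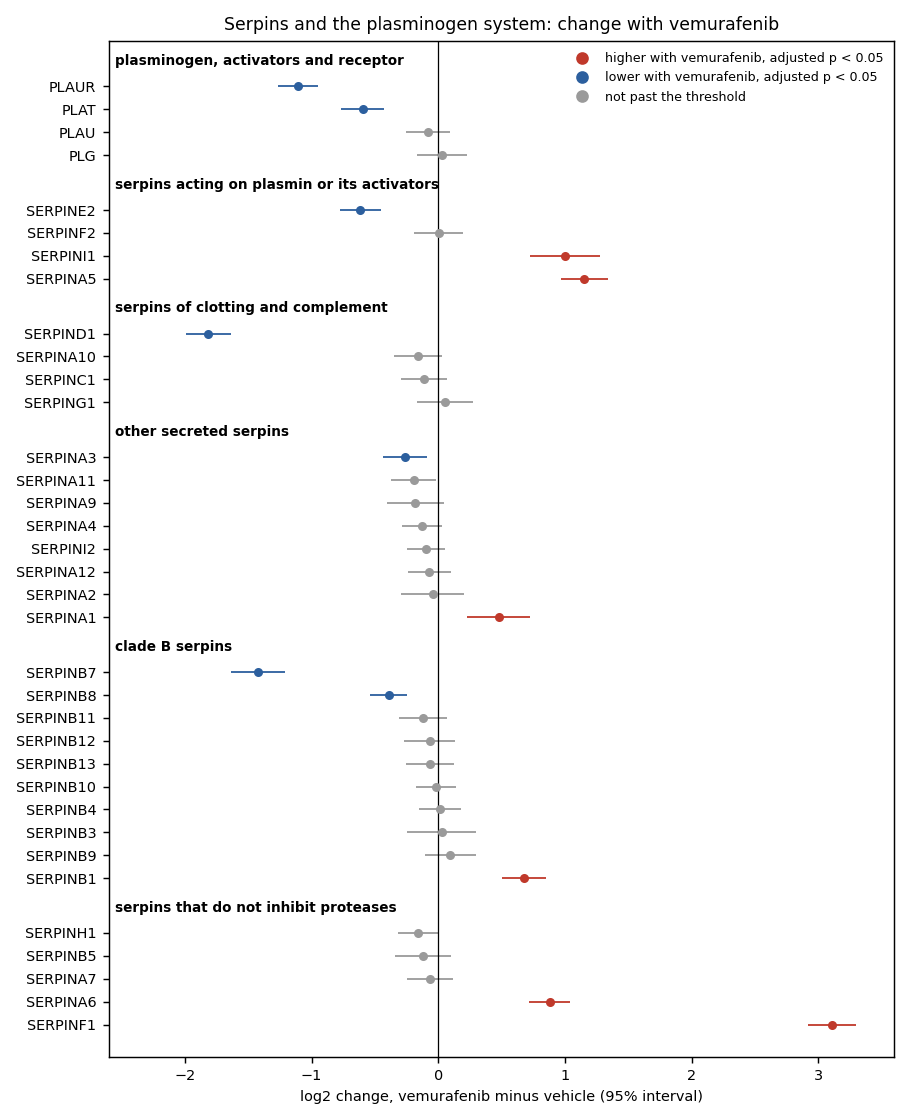
Log2 change, vemurafenib minus vehicle (horizontal axis), of each of the 35 genes, grouped by role, with 95% intervals from limma as bars. Of the 35 genes 6 lie to the right and passed (red), 7 lie to the left and passed (blue), and 22 did not pass (grey). SERPINF1 stands apart on the right at 3.11.

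**Figure D2:**
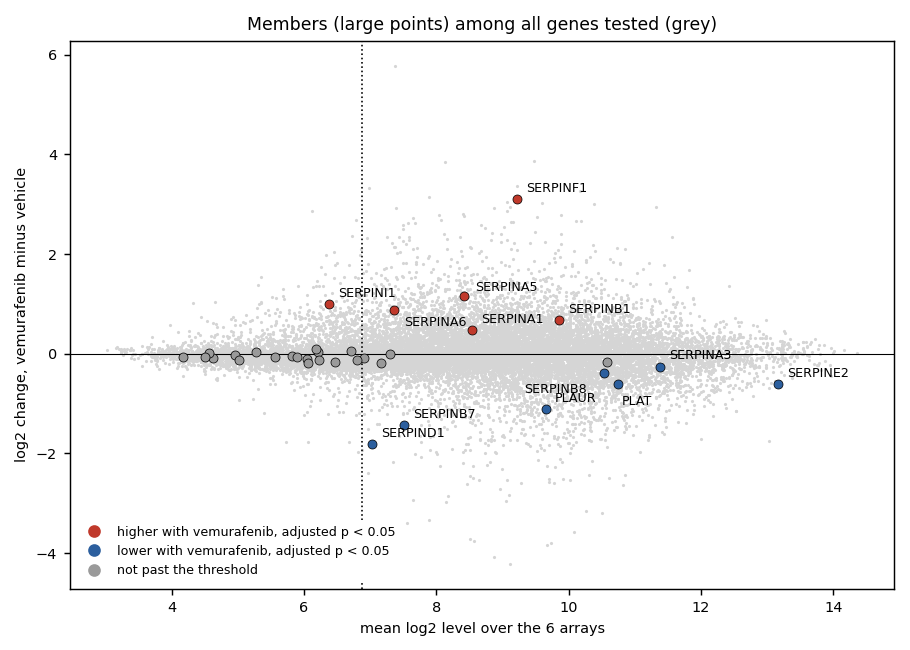
Change (vertical axis, log2) against mean level over the 6 arrays (horizontal axis, log2) for the 35 genes (large points) and all 18417 genes (grey); the dotted line is the dim line at 6.87. The members left of the line lie near 0 except SERPINI1 at 1.00, and the labelled points are the 13 genes that passed.

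The DNA before the start of 6 genes is shown because these are the 3 largest falls and the 3 largest rises for which RefSeq's promoter table (GRCh38.p14) had an entry. It had an entry for 27 of the 35 genes, and for 11 of the 13 that passed. SERPINF1 and PLAT are named only. Each run holds the 250 bases before the annotated start, 5′ to 3′ on the gene's own strand. Capitals mark matches to 6 short motifs searched on both strands. The letters searched were TGANTCA for AP-1, then CGGAAG for the ETS family, then CACGTG for the E-box, then GTAAACA for forkhead factors, then GGGCGG for the GC box and finally TATAAA for the box that binds the TATA-binding protein.
SERPIND1 (chr22:20773863-20774112, plus strand): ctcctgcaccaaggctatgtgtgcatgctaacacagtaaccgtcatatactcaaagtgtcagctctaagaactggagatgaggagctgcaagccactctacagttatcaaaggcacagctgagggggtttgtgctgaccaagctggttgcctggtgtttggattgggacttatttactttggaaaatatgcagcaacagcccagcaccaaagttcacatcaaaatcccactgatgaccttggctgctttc
SERPINB7 (chr18:63752807-63753056, plus strand): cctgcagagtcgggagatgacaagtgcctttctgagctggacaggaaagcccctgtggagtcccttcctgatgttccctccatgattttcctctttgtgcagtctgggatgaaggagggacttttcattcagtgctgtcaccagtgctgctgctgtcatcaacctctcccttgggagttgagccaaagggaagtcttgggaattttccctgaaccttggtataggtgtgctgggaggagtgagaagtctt
PLAUR (chr19:43670170-43670419, minus strand): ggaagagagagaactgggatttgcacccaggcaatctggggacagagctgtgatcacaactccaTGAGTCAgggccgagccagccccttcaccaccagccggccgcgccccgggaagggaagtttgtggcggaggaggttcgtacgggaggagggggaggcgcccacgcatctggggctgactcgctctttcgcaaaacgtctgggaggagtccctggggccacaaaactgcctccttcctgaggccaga
SERPINA5 (chr14:94581176-94581425, plus strand): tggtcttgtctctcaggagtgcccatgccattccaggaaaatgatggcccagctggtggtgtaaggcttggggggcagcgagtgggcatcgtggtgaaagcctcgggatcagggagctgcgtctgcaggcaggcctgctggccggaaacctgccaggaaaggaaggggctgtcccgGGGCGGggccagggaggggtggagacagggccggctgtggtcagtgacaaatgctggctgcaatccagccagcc
SERPINI1 (chr3:167735471-167735720, plus strand): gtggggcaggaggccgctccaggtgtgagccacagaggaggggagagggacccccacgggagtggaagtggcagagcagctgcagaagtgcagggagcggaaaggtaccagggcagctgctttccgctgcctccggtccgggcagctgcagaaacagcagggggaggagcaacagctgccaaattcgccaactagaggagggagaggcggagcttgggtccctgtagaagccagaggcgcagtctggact
SERPINA6 (chr14:94323337-94323586, minus strand): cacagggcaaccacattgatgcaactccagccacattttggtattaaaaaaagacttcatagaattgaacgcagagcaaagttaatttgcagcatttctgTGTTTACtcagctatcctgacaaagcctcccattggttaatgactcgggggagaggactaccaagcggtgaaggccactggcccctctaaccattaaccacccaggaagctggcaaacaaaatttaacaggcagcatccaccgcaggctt

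The PLAUR run held 1 AP-1 match, beginning 186 bases before the start, the SERPINA5 run 1 GC box at 74 bases, and the SERPINA6 run 1 forkhead match, on the opposite strand, at 150 bases. The runs of SERPIND1, SERPINB7 and SERPINI1 held none of these letters. Over the 27 genes with an entry, an AP-1 match was found in 6 (22.2%), against 6.57% of 27305 genes read the same way. These 6 were PLAUR, SERPINB8, SERPINB5, SERPINB12, SERPINB13 and SERPINI2. The start given for SERPINB12 lies 23259 bases from that gene's annotated 5′ end, so its run is not the DNA before the gene itself. Those of PLAU and SERPINE2 lie 1778 and 646 bases from theirs. Of the genes that passed, 2 of the 6 fallers and 0 of the 5 risers with an entry held an AP-1 match. The GC box was found in 6 of 27 (22.2%, against 42.2% of all genes), among them 3 of the 5 risers (SERPINA1, SERPINA5 and SERPINB1) and 1 of the 6 fallers (SERPINE2). ETS matches were found in 3 of 27 (11.1%, against 16.7%), TATA in 4 (14.8%, against 11.2%), forkhead in 1 (3.70%, against 3.01%) and E-box in 0 (against 6.46%). Each gene was counted once for a motif, whether it held 1 match or several, overlapping ones included, and a match is only a match of letters.

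Among plasminogen, its activators and their receptor, 2 of 4 genes fell (50%, against 22.2% of all genes) and 0 rose (against 23.2%) in limma. The counts at an unadjusted p under 0.05 were the same. PLAUR, the urokinase receptor (probe set 8037374), had levels of 9.11, 9.03 and 9.17 on the vemurafenib arrays, against 10.18, 10.21 and 10.25 on the vehicle arrays. All 3 vemurafenib arrays lay at least 1.00 below the lowest vehicle array. The change was -1.11 (SE 0.07, limma adjusted p 2.79e-07), larger than the spread within groups (SD 0.07 and 0.04, n = 3 each). PLAT, tissue plasminogen activator (probe set 8150509), stood at 10.47, 10.47 and 10.40 with vemurafenib, against 11.05, 10.93 and 11.15 with vehicle. Its groups did not overlap either, with a change of -0.60 (SE 0.08, limma adjusted p 6.72e-05).

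PLAU, the urokinase gene (probe set 7928429), had 6.79, 6.87 and 6.92 with vemurafenib, against 6.88, 7.06 and 6.89 with vehicle. The groups overlapped close to the dim line, and the change of -0.08 had a 95% interval of -0.26 to 0.09 (limma adjusted p 0.417). PLG, plasminogen itself (probe set 8123259), had 6.26, 6.10 and 6.30 with vemurafenib, against 6.17, 6.34 and 6.06 with vehicle. All 6 arrays lay under the dim line, and the change of 0.03 had an interval of -0.17 to 0.22 (limma adjusted p 0.827). A level this dim may be background alone, so the PLG values say little about its RNA. The receptor and the tissue activator were thus lower in RNA with the drug. For urokinase the interval held no change beyond 0.26 in size, but this bounds the array values and not its RNA. Its vemurafenib mean of 6.86 lay under the dim line, and background there can hide a change.

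Of the 4 serpins that act on plasmin or its activators, 2 rose (50%, against 23.2% of all genes) and 1 fell (25%, against 22.2%). SERPINE2, protease nexin 1, which inhibits thrombin, urokinase and plasmin (probe set 8059376), had 12.82, 12.96 and 12.79 with vemurafenib, against 13.43, 13.50 and 13.48 with vehicle. The groups were 0.47 apart at their nearest arrays. The change was -0.61 (SE 0.07, limma adjusted p 3.63e-05). SERPINA5, the protein C inhibitor, which also inhibits urokinase (probe set 7976488), had 8.85, 9.08 and 9.06 with vemurafenib, against 7.83, 7.77 and 7.93 with vehicle. The vemurafenib arrays were all higher, by 0.92 or more, and the change was 1.15 (SE 0.08, limma adjusted p 7.47e-07).

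SERPINI1, neuroserpin, an inhibitor of tissue plasminogen activator in the nervous system (probe set 8083779), had 7.11, 6.75 and 6.76 with vemurafenib, against 6.04, 5.61 and 5.99 with vehicle. Replicate 1 was the highest array in each group, the groups were 0.72 apart, and the change was 1.00 (SE 0.13, limma adjusted p 5.56e-05). Its vehicle mean of 5.88 lay under the dim line. With vemurafenib its mean of 6.87 lay at the line, and replicates 2 and 3 lay under it. The fold of 2.00 is thus a ratio of array values that background limits. SERPINF2, alpha-2-antiplasmin, the main plasmin inhibitor of blood (probe set 8003656), had 7.35, 7.20 and 7.37 with vemurafenib against 7.28, 7.46 and 7.17 with vehicle. The groups overlapped fully, and the change of 0.00 had an interval of -0.19 to 0.20 (limma adjusted p 0.991).

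Of the serpins of clotting and complement, 1 of 4 fell (25%, against 22.2% of all genes) and 0 rose (against 23.2%) in limma. At an unadjusted p under 0.05 the counts were the same. SERPIND1, heparin cofactor II, which inhibits thrombin (probe set 8071420), had 6.09, 6.14 and 6.16 with vemurafenib, against 7.80, 8.06 and 7.98 with vehicle. All vemurafenib arrays lay under the dim line and all vehicle arrays lay above it. The change was -1.82 (SE 0.08, limma adjusted p 1.81e-08), the 76th largest fall among all genes, and the fold is limited by background on the vemurafenib side. SERPINC1 (antithrombin), SERPINA10 (an inhibitor of clotting factor X that works with protein Z) and SERPING1 (the C1 inhibitor of complement) lay under the dim line in both groups. Their changes were -0.12, -0.16 and 0.05, and none passed (limma adjusted p 0.272, 0.147 and 0.688).

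The other secreted serpins held 1 riser and 1 faller among 8 genes (12.5% each, against 23.2% and 22.2% of all genes). SERPINA1, alpha-1-antitrypsin, the main inhibitor of neutrophil elastase in plasma, averaged 8.78 ± 0.09 with vemurafenib and 8.30 ± 0.25 with vehicle (SD, n = 3 each). Its change was 0.48 (SE 0.11, limma adjusted p 0.00482), and its vehicle arrays ran from 8.03 to 8.52, a wider spread than in the drug group. SERPINA3, alpha-1-antichymotrypsin, an inhibitor of cathepsin G, averaged 11.26 ± 0.07 with vemurafenib and 11.52 ± 0.11 with vehicle. That change of -0.26 (SE 0.08, limma adjusted p 0.0192) did not pass without vehicle replicate 3 (limma adjusted p 0.0850), without vemurafenib replicate 1 (0.0818) or after renewed quantile normalization (0.0600). Over all alternatives its adjusted p ran from 0.00346 to 0.0850.

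The remaining 6 were SERPINA2, SERPINA4 (kallistatin), SERPINA9, SERPINA11, SERPINA12 (vaspin) and SERPINI2 (pancpin). They changed by -0.19 to -0.04, all with a negative sign and none past the threshold. SERPINA11 came closest, at 7.06 ± 0.09 with vemurafenib and 7.26 ± 0.10 with vehicle (SD, n = 3 each; limma adjusted p 0.0707). SERPINA2 is a close relative of SERPINA1, and RefSeq lists it as a transcribed pseudogene. Its mean levels of 5.80 with vemurafenib and 5.85 with vehicle were both dim. Whether its probes also read SERPINA1 RNA was not tested.

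Clade B serpins work mostly inside cells. Of the 10 grouped here, 1 rose (10.0%, against 23.2% of all genes) and 2 fell (20.0%, against 22.2%). SERPINB5, also of clade B, is given with the serpins that do not inhibit proteases. SERPINB7, megsin (probe set 8021623), had 6.80, 6.74 and 6.87 with vemurafenib, against 8.44, 8.09 and 8.14 with vehicle. The drug arrays lay at the dim line or under it and at least 1.22 below every vehicle array. Its change was -1.43 (SE 0.10, limma adjusted p 3.95e-07). SERPINB1, the leukocyte elastase inhibitor (probe set 8123598), had 10.27, 10.22 and 10.07 with vemurafenib, against 9.59, 9.43 and 9.51 with vehicle. These groups were 0.48 apart, with a change of 0.68 (SE 0.08, limma adjusted p 3.17e-05).

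SERPINB8, which can inhibit the convertase furin, averaged 10.33 ± 0.01 with vemurafenib and 10.73 ± 0.02 with vehicle (SD, n = 3 each). It varied little within groups, and its change of -0.39 (SE 0.07) passed with a limma adjusted p of 4.8e-04. The other 7 were SERPINB3, SERPINB4, SERPINB9, SERPINB10, SERPINB11, SERPINB12 and SERPINB13. All 7 lay under the dim line in both groups and changed by -0.12 to 0.10, with none past the threshold. SERPINB9, the inhibitor of the killer cell protease granzyme B, stood at 6.24 with vemurafenib and 6.14 with vehicle. SERPINB3 and SERPINB4 are near-identical copies, so their probe sets may share signal and their values of 5.30 and 4.57 with vemurafenib, against 5.27 and 4.56 with vehicle, are uncertain as to gene.

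Of the 5 serpins that do not inhibit proteases, 2 rose (40.0%, against 23.2% of all genes) and 0 fell in limma. These counts were the same at an unadjusted p under 0.05. SERPINF1, pigment epithelium-derived factor, a secreted protein known to restrain blood vessel growth (probe set 8003667), had 10.81, 10.83 and 10.68 with vemurafenib, against 7.74, 7.51 and 7.75 with vehicle. The lowest vemurafenib array lay 2.93 above the highest vehicle array, and both groups were above the dim line. Its change of 3.11 (SE 0.09, 95% interval 2.92 to 3.30, limma adjusted p 9.07e-10) was the 8th largest rise among all 18417 genes. Fibroblasts also make this factor, although the cells here were a single melanoma line. The 10 fibroblast markers had summed log2 levels of 75.35 to 77.22 on the vemurafenib arrays and 71.31 to 72.22 on the vehicle arrays. Of the 10, 4 rose (40.0%, against 23.2% of all genes). On the log2 scale DCN rose by 1.46, ACTA2 by 1.40, LUM by 1.13 and PDGFRB by 1.08. The vehicle mean of DCN, 5.46, lay under the dim line. The other 6, COL1A1, COL1A2, COL3A1, THY1, POSTN and PDGFRA, did not pass, and POSTN and PDGFRA were dim in both groups. The part of these markers in the result was not tested.

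SERPINA6, the gene of the cortisol carrier of blood (probe set 7981059), had 7.75, 7.79 and 7.84 with vemurafenib, against 7.02, 6.85 and 6.88 with vehicle. Vehicle arrays lay at the dim line, the groups were 0.73 apart, and the change was 0.88 (SE 0.07, limma adjusted p 2.33e-06). SERPINH1, HSP47, the chaperone that folds collagen in the endoplasmic reticulum (probe set 7942596), had 10.60, 10.50 and 10.42 with vemurafenib, against 10.68, 10.63 and 10.68 with vehicle. Its groups did not overlap, but the change of -0.16 did not pass (SE 0.07, limma adjusted p 0.105) and had an interval of -0.32 to 0.00. It passed when arrays were centred on the median of the tested genes (-0.22, limma adjusted p 0.0263, range over the alternatives 0.0263 to 0.256). SERPINA7, the thyroxine carrier, and SERPINB5, maspin, were dim in both groups, with changes of -0.07 and -0.12 and limma adjusted p values of 0.528 and 0.357. Without vehicle replicate 2, the change of SERPINB5 was -0.23 and passed (limma adjusted p 0.0464).

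**Figure D3:**
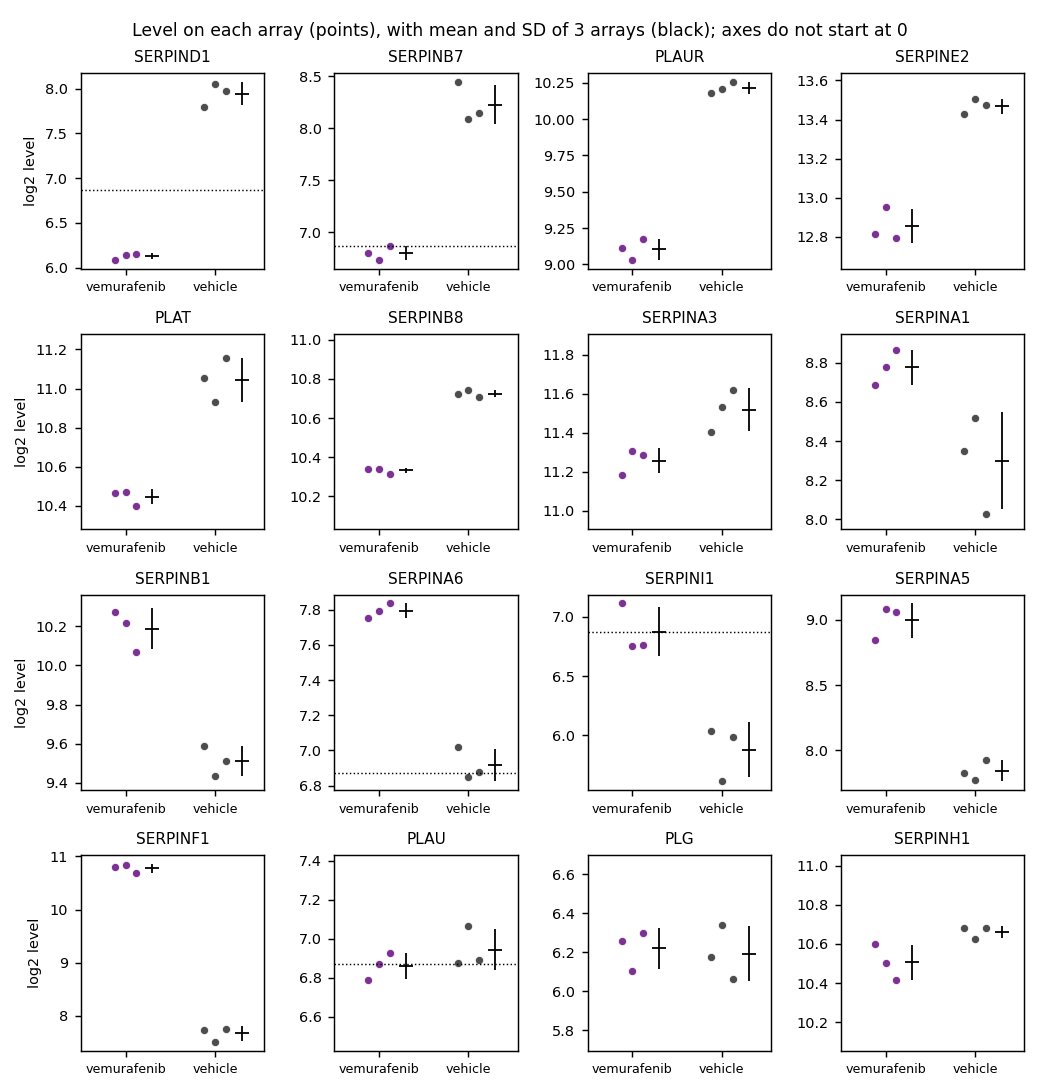
Log2 level on each array for the 13 genes that passed, from the largest fall to the largest rise, and for PLAU, PLG and SERPINH1, which did not pass. Points are arrays (replicates 1 to 3 from left to right), black marks are the mean and SD of 3 arrays, the dotted line is the dim line, and each panel has its own axis. The groups are apart in the first 13 panels and in that of SERPINH1, and overlap for PLAU and PLG.

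Many serpin genes lie side by side, and neighbours in the RefSeq gene order (GRCh38.p14) did not change alike. Over all genes 23.2% passed as higher and 22.2% as lower. In a run of 10 clade A genes, from SERPINA10 to SERPINA3, 3 rose, 1 fell and 6 did not pass. SERPINA6 (0.88) lay between SERPINA10 (-0.16) and SERPINA2 (-0.04), and SERPINA1 (0.48) came next. After SERPINA11, SERPINA9, SERPINA12 and SERPINA4, all between -0.19 and -0.07, SERPINA5 (1.15) stood directly before SERPINA3 (-0.26). In a run of 9 clade B genes, from SERPINB5 to SERPINB8, 2 fell, SERPINB7 and SERPINB8, and SERPINB10 between them stood at -0.02. SERPINF1 (3.11) and SERPINF2 (0.00) are direct neighbours. SERPINI1 (1.00) has SERPINI2 (-0.10) near it, with 2 protein-coding genes between them. SERPINB1 (0.68) lies next to SERPINB9 (0.10) in order of protein-coding genes. Most of the neighbours that did not pass were dim, and a dim probe set can hide a change.

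**Figure D4:**
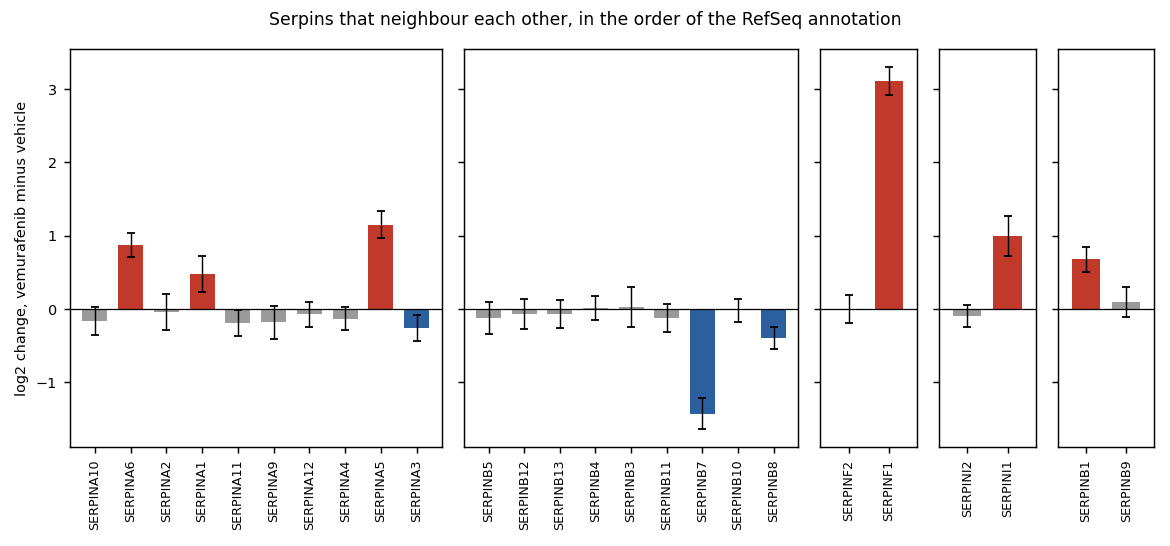
Log2 change (vertical axis, with 95% interval) of serpins that lie near each other, drawn in RefSeq gene order with 1 panel for each run; red bars rose, blue bars fell and grey bars did not pass. Tall bars stand next to bars near 0 in every panel, as for SERPINF1 at 3.11 beside SERPINF2 at 0.00.

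Genes chosen as related to the members were followed through 6 lists. Of these genes 156 were measured and 60 passed, against 45.5% of all genes. Of 25 genes of plasminogen binding, activation and uptake, 8 rose and 6 fell (56.0%). ITGB3, an integrin subunit of the vitronectin receptor, was 8.68 with vemurafenib and 11.84 with vehicle, a change of -3.16. LRP8, a receptor of the LDL receptor family, changed by -1.49. LRP1, the endocytic receptor that clears complexes of serpins and proteases, was 10.64 with vemurafenib and 9.42 with vehicle, a change of 1.22. NID1, a basement membrane protein, rose 1.99-fold. The median change of the list was -0.01.

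Of 27 clotting proteases, cofactors and receptors, 5 rose and 2 fell (25.9%), with a median of -0.05. F2RL2, a protease-activated receptor for thrombin, rose to 11.26 with vemurafenib, against 9.64 with vehicle. F8, clotting factor VIII, and PROS1, protein S, rose by 1.30 and 1.22 on the log2 scale, and TFPI2, a protease inhibitor of the matrix, fell by 1.43. For F8 the vehicle mean of 6.78 lay under the dim line. Of 21 intracellular and granule proteases bound by serpins, 4 rose and 2 fell (28.6%, median -0.11), with the cathepsin genes CTSK at 1.59, CTSH at 0.68, CTSS at 0.40 and CTSB at 0.35. CTSS was dim in both groups.

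Of 22 serine and cysteine protease inhibitors outside the serpin family, 5 rose and 0 fell in limma (22.7%, median 0.06), with 8 and 2 at an unadjusted p under 0.05. SPINT1, an inhibitor of matriptase, and RECK, a membrane inhibitor of metalloproteases, rose by 0.60 and 0.54. APLP2 (0.24) and CST3 (0.20) passed by little. APLP2 lost its call when vemurafenib replicate 3 (limma adjusted p 0.0600) or vehicle replicate 2 (0.0535) was left out, and over the alternatives its adjusted p ran from 0.00355 to 0.0600. CST3 lost its call in 9 of 18 alternatives, with limma adjusted p values of 0.120 without vehicle replicate 1, 0.162 without vehicle replicate 3, 0.168 without vemurafenib replicate 1, 0.0785 without vemurafenib replicate 2 and 0.0752 with the replicate block. Its adjusted p ran from 0.00379 to 0.168. Of 36 genes listed as membrane and secreted serine proteases, 12 rose and 4 fell (44.4%, median 0.00). Some genes of this list act inside cells or encode relatives without protease activity. DPP4 and FAP, related peptidases of the cell surface, rose by 1.80 and 1.60 from vehicle levels under the dim line. The transmembrane proteases TMPRSS5 and TMPRSS3 rose by 1.62 and 1.10, TMPRSS3 also from a vehicle level under the line.

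Of 25 genes of collagen folding and processing, 7 rose and 5 fell (48.0%, median -0.05). BMP1, which trims procollagen, and its helpers PCOLCE and PCOLCE2 rose by 0.75, 0.61 and 0.40, and ADAMTS3, another procollagen protease, fell by 0.39. For BMP1 the mean of its probe sets gave 0.36 in place of 0.75 for the brightest one (limma adjusted p 9.45e-06). Its probe sets thus disagree in size, and over the alternatives its limma adjusted p reached 0.00109. These shares lay on either side of the 45.5% seen over all genes, and the lists were fixed with earlier results of these data known.

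**Figure D5:**
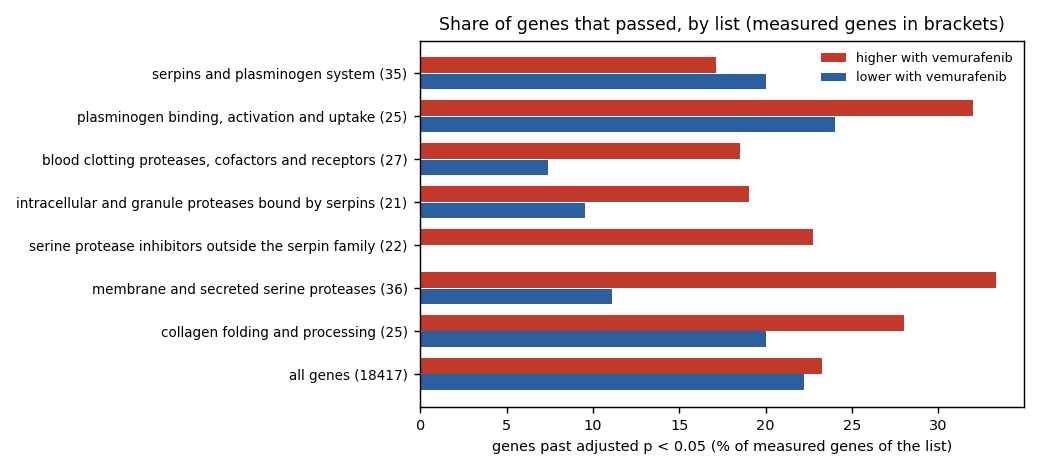
Share of measured genes that passed (horizontal axis, percent), higher (red) or lower (blue) with vemurafenib, in the 35 members, in the 6 related lists and in all 18417 genes. The members, at 17.1% and 20.0%, lie below the shares over all genes, 23.2% and 22.2%.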

How the data were processed

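The authors deposited log2 levels for each probe set. Of the tools, RMA and Partek are listed, with no version or role, per the submitters' processing notes. Batch handling and genome build were not given in the sources used here. RMA usually sets all arrays to 1 distribution, so a shift of all RNA at once cannot be seen. Large folds can shrink where a level lies near background. The table held 33297 probe sets on 6 arrays, from 2.67 to 14.56, with 0 missing values. The platform annotation named 1 gene for 19460 probe sets, several for 1754 and none for 12083. Of the 769 genes with more than 1 probe set, the brightest on average was kept, and 0 members were among them.

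Groups came from the sample titles. All 18417 genes were fitted with limma 3.58.1 in R 4.3.3 (lmFit and eBayes, group as the only term, 2-sided, Benjamini-Hochberg adjustment, no filter on dim genes); the random block used statmod 1.5.0. Intervals are 95%. The submitters state that dishes of 1 stock and day form pairs, but only 1 array's labels carry its pair letter, so the replicate block was an alternative. Array values are printed for PLAU, PLAUR, PLAT, PLG, SERPINE2, SERPINF1 and SERPINH1 and for members that passed with a change of at least 0.5, and the genes with the largest changes that passed, up to 4, are named per related list; SERPINF2 and other members were added after their values were seen, and 1 further gene of that rule is not analysed here. Members and lists were chosen with earlier results of these data known. Motifs were searched in RefSeq's promoter table, taking the start nearest the gene's 5′ end. Figures were drawn with matplotlib 3.10.9 in Python 3.11.15.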

Additional observations from a re-analysis of the deposited data

Results flagged for a closer look

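Apart from the probe set that names PLG alone, 3 probe sets name PLG together with 3 or 4 related genes, and the comparison did not use them. In a limma fit of all 33297 probe sets, 2 of these, which hold identical values, stood at 7.60 with vemurafenib and 7.07 with vehicle, a change of 0.52 (limma adjusted p 0.00558). They name PLGLA, LPAL2, PLGLB1, PLGLB2 and PLG, and which of these genes they read cannot be told. The third stood at 6.31 with vemurafenib and 6.14 with vehicle (limma adjusted p 0.369).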

How the results depend on the processing

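Results were recomputed under 18 alternatives, of which centring on the median of the tested genes was chosen after seeing the data. Of the 13 members that passed, 12 kept their direction and their call in every alternative that gave a value, and SERPINA3 was the exception. Members under the dimness limit have no value once dim genes are left out, which removes SERPINI1, for example. The count of members that passed ran from 9 to 16. Leaving out single arrays gave 12 to 14. It was 9 of the 10 members tested without the dimmest 50% of genes (90%, against 64.7% of all genes tested there). In that setting 3 members passed at 2-fold or more (against 5), and 38 genes of the related lists passed (against 60). Fewer genes were tested there. Centring on the median of the tested genes gave 16 members (45.7%, against 50.6% of all genes) and added SERPINA4, SERPINA11 and SERPINH1. It moved the median change of all genes to -0.11, from -0.05. SERPINA9 passed only without vemurafenib replicate 2 (-0.30, limma adjusted p 0.0201), and SERPINB5 only with array weights (0.0258) or without vehicle replicate 2. Of the 22 members that did not pass, 8 changed sign in some alternative, never past the threshold. With the replicate block, 13 members and 7606 genes passed as a fixed term, and 13 and 7923 as a random one. Same-numbered arrays deviated from their group means with correlations of 0.14, -0.18 and -0.25 over all genes, and vemurafenib replicates 2 and 3 correlated best with other numbers. The numbers are thus not taken to pair the arrays, and this block says nothing about the pairs the submitters describe, which were not fitted. Arrays carry no detection calls here, and dim probe sets limit what can be seen for the 17 members that were dim in both groups.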
